A study of Mus musculus with 6 samples.

Results

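Fgf21, a hormone of nutrient and cell stress, was examined together with its co-receptor, the FGF receptors and 4 genes of the stress response in the pancreas of mice at postnatal day 7. The 10 genes were Fgf21, Klb, Fgfr1, Fgfr2, Fgfr3, Fgfr4, Atf4, Ddit3, Trib3 and Nupr1, taken by exact symbol from the 23337 symbols in the count files. All 10 were found in all 6 libraries, and all 10 passed the filter on low counts. They were chosen by their levels in these mutant and control libraries, so their own differences are given as a description without a test. Tests were run on other genes of the same pathways.

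The mutant group held 3 libraries of pancreas from Ptf1a cre/+ mice that also carried CAG-loxP-STOP-loxP-Prox1-LacZ, in which Cre made from the Ptf1a locus removes a stop cassette and switches on Prox1 and LacZ. The control group held 3 libraries from mice with Ptf1a cre/+ alone, so that both groups carried the Cre insertion at 1 Ptf1a allele. All mice were of strain NMRI, and whole pancreas was used. Ptf1a is active in pancreas progenitors and later in acinar cells, so the transgene is expected in epithelium descended from those cells and not in immigrant cells. The design text calls the controls pools and the mutants single pancreata, whereas the protocol speaks of individual organs, and any effect of pooling cannot be told apart from genotype.

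Total counts lay between 7304727 and 10773223 per library. Prox1, the gene carried by the transgene, had 268, 270 and 310 counts in mutants 1 to 3 and 72, 71 and 95 in controls 1 to 3 and thus followed the labels. Control 1 was the only library with Xist in number (7110 counts, against at most 4 in any other), so it held female tissue. Without control 1, the log2 fold changes of Fgf21, Nupr1, Ddit3 and Trib3 given further on became 4.47, 0.99, 1.54 and 0.95. Summed acinar markers, of which 0 of 9 passed the test in either direction, lay between 233174 and 277939 CPM in mutants and between 250366 and 286035 in controls. CPM are counts scaled to a common library size. Of duct, islet, mesenchyme and endothelial markers 0 passed, and of 7 macrophage markers 2 rose and 1 fell. Duct markers summed to between 423 and 595 CPM in mutants, below the 626 to 710 CPM of controls, and the part of these values in the results was not tested. Levels in whole tissue cannot tell fewer cells of a type from less RNA per cell.

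FGF21 is secreted by liver, fat, muscle and the exocrine pancreas, and in acinar cells it is known to promote release of digestive enzymes and to limit stress of the endoplasmic reticulum. It signals through FGF receptors, mainly FGFR1, only where the single-pass protein beta-klotho, the product of Klb, is present to hold it. Its transcription is known to be raised by nuclear receptors in fasting and by the integrated stress response, in which kinases phosphorylate the translation factor eIF2. Most translation then falls while the bZIP factor ATF4 is made from existing messenger RNA. ATF4 acts with C/EBP partners on genes such as Ddit3 (CHOP), Trib3, Nupr1, Asns and Fgf21 itself.

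Promoters are shown for 4 of the 5 genes that were higher in all mutants. They are shown because ATF4 and C/EBP factors act on genes such as these 4 through a short element. RefSeq promoters on GRCm38.p6, from 250 bases before to 50 bases after the annotated start, were at hand for 9 of the 10 genes. The core of the C/EBP-ATF response element, written TGATGNAA and searched on both strands, stood in 3 of those 9 genes, Fgf21, Nupr1 and Trib3. It stood in 3.97% of 32851 promoters of that length, and in 2.76% of 9345 tested genes outside the 10. The 10 include genes known as ATF4 targets, so nothing is read from the difference in shares. In Fgf21 the match TTGCATCA lay from base -139 to base -132 relative to the start, and in Nupr1 the same letters lay from -110 to -103. In Trib3 the match TTACATCA lay from base 15 to base 22 after the start. Ddit3, which held no match in this window, is printed for comparison. Fgfr3, also higher in all mutants, likewise held no match and is not printed. Neither the cAMP response element TGACGTCA (1.79% of promoters) nor the Nr5a2 site CAAGGTCA (1.56%) stood in any of the 9 genes. Sequences read 5′ to 3′ along the gene, capitals mark the matched element, and a match in letters does not show that a factor binds.

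Fgf21 (chr7:45615441-45615740, minus strand): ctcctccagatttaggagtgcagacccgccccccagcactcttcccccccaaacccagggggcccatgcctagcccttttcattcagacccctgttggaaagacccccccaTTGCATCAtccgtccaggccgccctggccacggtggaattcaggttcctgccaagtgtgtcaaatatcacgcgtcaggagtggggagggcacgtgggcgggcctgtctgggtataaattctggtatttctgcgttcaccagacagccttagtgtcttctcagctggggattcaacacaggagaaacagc
Nupr1 (chr7:126625421-126625720, minus strand): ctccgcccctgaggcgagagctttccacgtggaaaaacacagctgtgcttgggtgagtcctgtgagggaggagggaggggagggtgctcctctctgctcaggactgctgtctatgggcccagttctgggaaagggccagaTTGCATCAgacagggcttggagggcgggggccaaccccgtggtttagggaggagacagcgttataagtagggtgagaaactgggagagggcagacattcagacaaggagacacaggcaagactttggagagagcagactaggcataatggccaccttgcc
Trib3 (chr2:152344011-152344310, minus strand): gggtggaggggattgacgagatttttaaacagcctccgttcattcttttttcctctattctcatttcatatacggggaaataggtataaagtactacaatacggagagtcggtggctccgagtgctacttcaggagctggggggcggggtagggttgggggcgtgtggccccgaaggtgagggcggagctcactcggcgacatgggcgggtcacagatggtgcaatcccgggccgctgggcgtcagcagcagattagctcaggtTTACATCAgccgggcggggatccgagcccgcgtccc
Ddit3 (chr10:127290543-127290842, plus strand): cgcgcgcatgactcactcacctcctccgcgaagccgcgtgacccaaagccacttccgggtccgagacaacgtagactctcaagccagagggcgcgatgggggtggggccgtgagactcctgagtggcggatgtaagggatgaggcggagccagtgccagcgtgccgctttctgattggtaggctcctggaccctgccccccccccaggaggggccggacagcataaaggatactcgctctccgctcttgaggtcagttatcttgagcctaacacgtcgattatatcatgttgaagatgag

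Fgf21 was nearly silent in control pancreas and was present in every mutant. It is a 3-exon gene at chr7:45613886-45615490 on the minus strand of mm10 (ENSMUSG00000030827.5). It had 165, 129 and 111 counts in mutants 1 to 3, against 6 counts in each of controls 1 to 3. Scaled to library size by TMM, these were 15.7, 15.0 and 11.1 CPM in mutants and 0.902, 0.663 and 0.577 CPM in controls. The lowest mutant thus lay more than 10 CPM above the highest control, and the groups did not overlap.

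The fitted log2 fold change of Fgf21 was 4.30 ± 0.26 (SE, n = 3 per group), a 19.7-fold higher level in mutants. Exact Poisson intervals at 95% covered 9.12 to 13.3 CPM for the lowest mutant and 0.331 to 1.96 CPM for the highest control, and they cover counting error only. No exon base of Fgf21 overlapped another annotated gene, and 0% of its 50-base stretches occurred in transcripts of another gene. Its log2 fold change lay between 4.16 and 4.47 whichever library was left out.

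Markers of 2 tissues known to make FGF21 were set beside these values, and their part in the result was not tested. Of 12 hepatocyte markers, Serpina1a, Apoc3 and Hamp were at 0 in all 6 libraries, and Cps1, Cyp2e1, Tat and Fgb did not exceed 0.699 CPM in any library. Cps1 and Cyp2e1 had counts in mutants only, 4 at most. Apoa2 had 5, 3 and 14 counts in mutants 1 to 3 and 0 in each control, and Apoa1 had 0, 2 and 36 counts in mutants 1 to 3 and 2, 0 and 0 in controls 1 to 3. The summed level of the 12 was 126 to 228 CPM in mutants and 102 to 147 CPM in controls, most of it Ttr, which islets also express. Only Ahsg, Alb and Ttr, 3 of the 12, had counts enough to be tested. Of these Ahsg alone passed. It had 48.8, 14.3 and 33.0 CPM in mutants 1 to 3 and 0, 0.442 and 0 CPM in controls 1 to 3. Alb, the main plasma protein gene of liver, was at 15.5, 13.0 and 37.5 CPM in mutants and 12.3, 7.18 and 7.69 CPM in controls. In Ahsg, Alb and Apoa2 all mutants lay above all controls. Ahsg was highest in mutant 1, as Fgf21 was, and Alb, Apoa1 and Apoa2 were highest in mutant 3. The 8 adipocyte markers summed to between 11.5 and 17.6 CPM in mutants, below the 35.3 to 65.3 CPM of controls, and Lgals12 was the 1 of 5 tested that passed, falling in mutants.

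**Figure D1:**
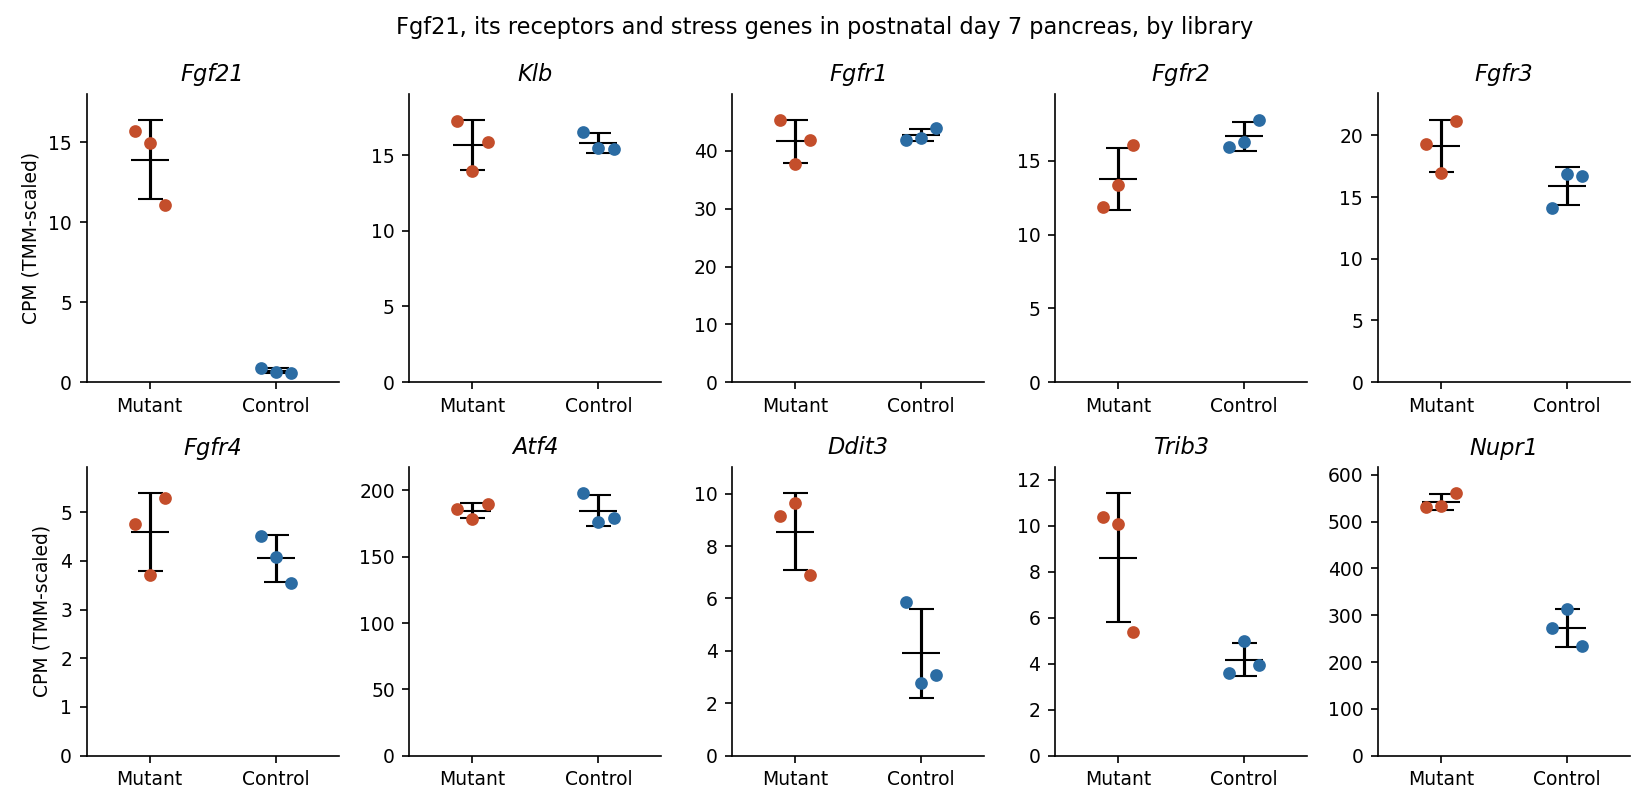
Level of each of the 10 genes in CPM scaled by TMM, with 1 point per library, the mean as a horizontal line and the SD as error bars (n = 3 per group); each panel has its own vertical axis, which starts at 0. Fgf21 lies at 11.1 to 15.7 CPM in mutants and below 1 CPM in controls, Nupr1, Ddit3 and Trib3 are higher in all mutants than in any control, and Klb, Fgfr1 and Atf4 overlap.

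Klb, Fgfr1 and Fgfr4 overlapped between the groups. Klb had 17.2, 13.9 and 15.9 CPM in mutants 1 to 3 and 16.5, 15.5 and 15.4 CPM in controls 1 to 3, with a log2 fold change of -0.01 ± 0.13 (SE, n = 3 per group). The groups overlapped, and mutants 1 and 2 bracketed all controls. Fgfr1, the receptor that carries most FGF21 signalling in fat, had 45.3, 37.8 and 41.8 CPM in mutants and 42.0, 42.3 and 43.9 CPM in controls. Its log2 fold change was -0.04 ± 0.10, and its mutants likewise lay on both sides of the controls.

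Fgfr2 and Fgfr3 leaned in opposite directions. Fgfr2, whose epithelial form receives FGF10 from mesenchyme in the growing pancreas, had 11.9, 13.3 and 16.1 CPM in mutants 1 to 3, against 15.9, 16.2 and 17.8 CPM in controls 1 to 3. Mutants 1 and 2 lay below every control and mutant 3 lay within them, and the log2 fold change was -0.28 ± 0.14. Fgfr3, a receptor best known from cartilage, had 19.3, 16.9 and 21.2 CPM in mutants, against 14.1, 16.9 and 16.7 CPM in controls. The gap between mutant 2 (16.94 CPM) and control 2 (16.90 CPM) was small, so the groups only just failed to overlap, and the log2 fold change was 0.26 ± 0.13. Reads of the antisense gene G630022F23Rik, which covers 13.9% of the exon bases of Fgfr3, cannot be separated because the strand setting is not given. Fgfr4, the receptor that pairs with beta-klotho in liver to receive FGF15, had 4.76, 3.71 and 5.29 CPM in mutants and 4.51, 4.09 and 3.56 CPM in controls. Its groups overlapped, with a log2 fold change of 0.19 ± 0.23.

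Levels of different genes were compared as CPM per kilobase of annotated exon, a scale that understates genes with many alternative exons. In controls the order of the receptors was Fgfr1 with 4.33 ± 0.106 (SD, n = 3), Fgfr3 with 2.22 ± 0.216, Fgfr2 with 1.61 ± 0.0956 and Fgfr4 with 1.14 ± 0.135, and no neighbours in this order overlapped. In mutants Fgfr1 stood at 4.22 ± 0.380 and Fgfr3 at 2.67 ± 0.296, whereas Fgfr2 (1.33 ± 0.205) and Fgfr4 (1.30 ± 0.227) overlapped. Klb was second to Fgfr1 in both groups, with 3.45 ± 0.366 in mutants and 3.47 ± 0.142 in controls. On this scale Fgf21 was at 16.5, 15.7 and 11.7 in mutants 1 to 3, above Klb and every receptor in each of those libraries. In controls 1 to 3 it was at 0.949, 0.697 and 0.606, below Klb and every receptor in each. Of the summed level of the 4 receptors, Fgfr3 made up 28.1 ± 0.702% in mutants and 23.9 ± 1.78% in controls. Fgfr2 made up 14.03 ± 1.96% in mutants and 17.3 ± 0.697% in controls. Neither share overlapped between groups, and in CPM the groups failed to overlap in 19.0% of all genes tested. Both shares are parts of the same sum and so are not independent. In CPM Fgfr2 overlapped and Fgfr3 only just failed to overlap, so nothing is read from the shares.

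**Figure D2:**
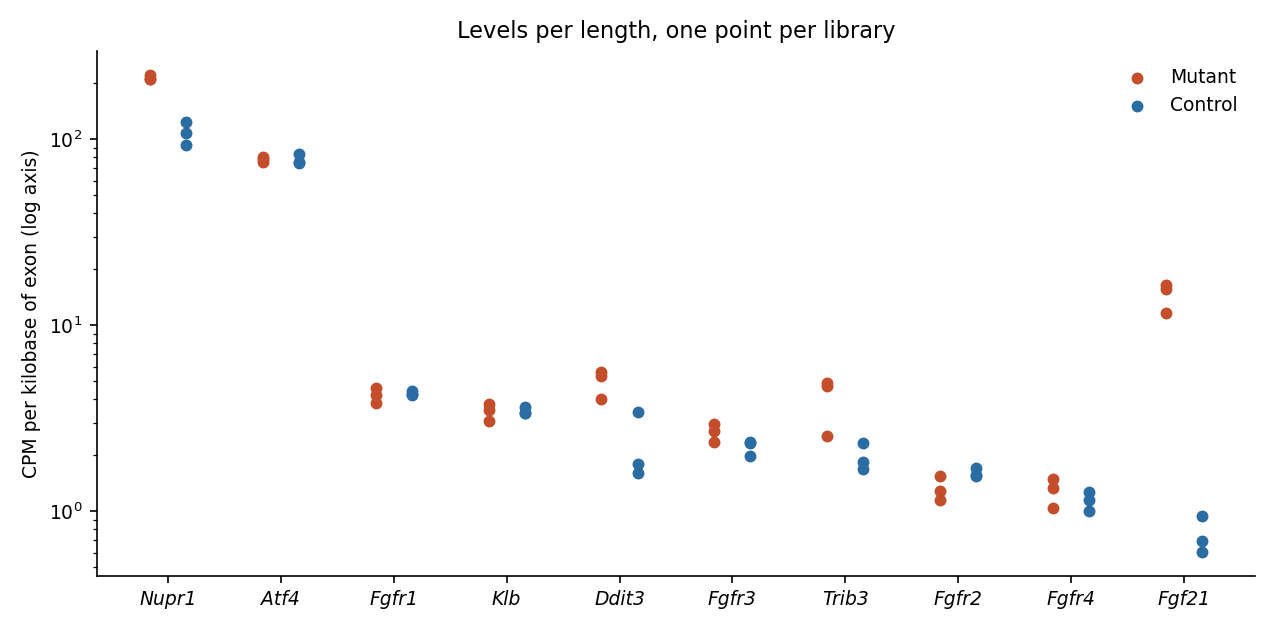
Level of each gene as CPM per kilobase of annotated exon on a log axis, with 1 point per library, mutants left of controls, and genes ordered by their control mean. Fgf21 moves past Klb and all 4 receptors in mutants (11.7 to 16.5, against 0.606 to 0.949 in controls), while Klb lies between 3.06 and 3.79 in mutants and between 3.38 and 3.64 in controls.

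Atf4 messenger RNA was at like levels in both groups, while 3 genes known to lie downstream of ATF4 were higher in mutants. Atf4 had 186, 178 and 190 CPM in mutants 1 to 3 and 198, 176 and 179 CPM in controls 1 to 3. Its groups overlapped, and the log2 fold change was 0.0016 ± 0.10 (SE, n = 3 per group). ATF4 protein is set largely by translation and was not measured here.

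Ddit3 encodes CHOP, a bZIP factor of prolonged stress that can lead to cell death. It had 9.14, 9.63 and 6.89 CPM in mutants 1 to 3, against 5.86, 2.76 and 3.08 CPM in controls 1 to 3. Every mutant lay above every control, and control 1 stood well above the other controls. The log2 fold change was 1.17 ± 0.28, and it was 1.54 without control 1 and 0.98 without control 2. The 4.73% of its exon bases that overlap Gm4189 and Mars on the other strand could not be separated.

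Trib3 encodes a pseudokinase that CHOP and ATF4 induce and that restrains both AKT and ATF4. It had 10.4, 10.1 and 5.39 CPM in mutants 1 to 3, against 3.61, 4.97 and 3.94 CPM in controls 1 to 3. Mutant 3 lay close to control 2, although the groups did not overlap. The log2 fold change was 1.03 ± 0.27, and it was 0.87 without mutant 1 and 1.28 without mutant 3.

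Nupr1, also called p8, encodes a small chromatin protein that was first found in inflamed rat pancreas. It was the most abundant of the 10 genes, with 531, 533 and 561 CPM in mutants 1 to 3 and 272, 314 and 233 CPM in controls 1 to 3. The mutants lay close together and far above all controls, and the level in mutants was 1.98-fold that in controls (log2 fold change 0.99 ± 0.13). The order within the mutants differed between these genes, since mutant 3 was lowest for Fgf21, Ddit3 and Trib3 and highest for Nupr1.

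In 5 of the 10 genes (Fgf21, Nupr1, Ddit3, Trib3 and Fgfr3) all mutants lay above all controls, as they did in 9.13% of the 13017 genes that passed the filter, and the groups failed to overlap in either direction in 19.0% of those genes. In 0 of the 10 did all mutants lie below all controls, against 9.86% of genes tested. Because the 10 were picked with these values known, nothing is read from those counts.

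Among the other genes of both pathways, grouped in 14 lists, few passed the test. The test was the quasi-likelihood test of edgeR, with a Benjamini-Hochberg adjusted p under 0.05 over all 13017 genes. Over all genes 268 (2.06%) passed, of which 71 (0.545%) rose and 197 (1.51% of genes tested) fell in mutants. The median log2 fold change was 0.0045. An unadjusted p under 0.05 by edgeR was held by 1662 of the 13017 genes, the background for such counts in the lists below. In the lists with a call it was held by 6 of 17 fatty acid genes and 5 of 18 factors acting on Fgf21. It was also held by 3 of 29 IRE1 and ATF6 genes, 2 of 13 transfer RNA genes and 1 of 18 eIF2 genes.

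Of the eIF2 kinases and other genes of the eIF2 machinery, 1 of 18 genes rose and 0 fell, with a list median of -0.00044 on the log2 scale. The gene that rose was Eif2ak3, which encodes PERK, the eIF2 kinase of the endoplasmic reticulum. It had 171, 127 and 186 CPM in mutants 1 to 3 and 83.0, 101 and 85.5 CPM in controls 1 to 3, with a log2 fold change of 0.84 ± 0.15 (adjusted p by edgeR = 0.0176). Its call was lost when mutant 1, mutant 3 or any 1 control was left out, and its adjusted p by edgeR then reached 0.0911. Reads of Gm43292, which covers 8.05% of its exon bases on the other strand, could not be separated. Eif2ak4, the kinase GCN2 that senses missing amino acids, had a log2 fold change of -0.01 ± 0.11 and did not pass (adjusted p by edgeR = 0.980).

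Of 13 bZIP partners and tribbles genes tested, 0 passed in edgeR, while 4 had an unadjusted p under 0.05 and 2 passed in DESeq2. Those 2 were Atf3 and Atf5, stress-induced relatives of ATF4. Atf3 had 7.81, 5.45 and 7.39 CPM in mutants 1 to 3 and 1.65, 3.65 and 3.17 CPM in controls 1 to 3. All its mutants lay above all controls, with a log2 fold change of 1.25 ± 0.28 (adjusted p by edgeR = 0.0551, adjusted p by DESeq2 = 0.0163). Atf5 had 77.9, 87.7 and 75.4 CPM in mutants 1 to 3 and 66.2, 42.1 and 43.9 CPM in controls 1 to 3, with a log2 fold change of 0.67 ± 0.16 (adjusted p by edgeR = 0.0777, adjusted p by DESeq2 = 0.00348). The median of the list was 0.13. Over the 13 alternative settings the adjusted p of Atf3 lay between 0.0163 and 0.230 and that of Atf5 between 0.00348 and 0.314.

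None of the genes through which ATF4 is known to supply amino acids passed the test. Of 20 such genes, 0 passed in edgeR or DESeq2 and 9 had an unadjusted p under 0.05, and the list median was -0.21. Asns, the asparagine synthetase that is a standard readout of ATF4, averaged 312 ± 18.7 CPM in mutants and 386 ± 21.6 CPM in controls (SD, n = 3), with a log2 fold change of -0.31 ± 0.11 (adjusted p by edgeR = 0.267). Psat1, of serine synthesis, averaged 101 ± 12.6 CPM in mutants and 125 ± 7.75 CPM in controls, with -0.30 ± 0.11 (adjusted p by edgeR = 0.297).

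Of 13 genes for transfer RNA charging and export, 0 rose and 1 fell, with a median of 0.01. The gene that fell was Wars, the tryptophan-charging enzyme, which interferon also induces. It had 46.4, 40.6 and 43.8 CPM in mutants 1 to 3, against 78.8, 116 and 82.4 CPM in controls 1 to 3. All mutants lay well below all controls, with a log2 fold change of -1.08 ± 0.15 (adjusted p by edgeR = 0.00429). Nars, which charges asparagine, had 0.13 ± 0.11 and did not pass (adjusted p by edgeR = 0.714). The response element TGATGNAA stood in 5 of 8 genes of this list and 5 of 16 amino acid genes with a promoter at hand, against 2.76% of 9345 tested genes. None of those 10 passed in either direction, and their medians were -0.03 and -0.22. It also stood in 3 of 12 other stress targets of ATF4 and CHOP (Chac1, Herpud1 and Vldlr, median 0.19). Among the bZIP genes it stood in 1 of 11 (Atf3, 1.25), among eIF2 genes in 1 of 14 (Eif2s3x, -0.25), among factors acting on Fgf21 in 1 of 17 (Nr5a2, -0.09), and in no gene of the other 8 lists.

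Of 14 other stress targets of ATF4 and CHOP, 0 passed in edgeR or DESeq2 and 2 had an unadjusted p under 0.05, with a median of -0.01. Gdf15, a further stress hormone often raised together with FGF21, averaged 1.125 ± 0.181 CPM in mutants and 1.94 ± 0.361 CPM in controls (SD, n = 3), with a log2 fold change of -0.76 ± 0.33 (adjusted p by edgeR = 0.363). Chac1, a glutathione-degrading enzyme and ATF4 target, had 0.28 ± 0.29 (adjusted p by edgeR = 0.771). Of the IRE1 and ATF6 arms of the unfolded protein response, 1 of 29 genes fell and 0 rose, with a median of -0.06. That gene was Derl3, of protein degradation at the endoplasmic reticulum, with a log2 fold change of -1.16 ± 0.12 (adjusted p by edgeR = 0.000708). Ern1, which encodes the sensor IRE1, had -0.05 ± 0.12 and did not pass (adjusted p by edgeR = 0.928).

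Of 14 mitochondrial stress genes 0 passed in edgeR, 3 had an unadjusted p under 0.05 and 1, the chaperone gene Hspa9, passed in DESeq2. The matrix chaperone genes Hspd1 and Hspe1 had log2 fold changes of 0.35 ± 0.11 and 0.09 ± 0.12 (adjusted p by edgeR = 0.203 and 0.814). The median of the 14 was 0.07. Of 16 autophagy genes 0 passed in edgeR or DESeq2 and 1 had an unadjusted p under 0.05, with a median of -0.04. Vmp1, a membrane protein of autophagy induced in pancreatitis, had 0.15 ± 0.12, and the cargo receptor gene Sqstm1 had 0.21 ± 0.09 (adjusted p by edgeR = 0.663 and 0.408).

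Among 18 factors known to act on Fgf21, 1 fell and 0 rose. Nr1h4, which encodes the bile acid receptor FXR, fell 11.6-fold. It had 1.62, 1.74 and 0.499 CPM in mutants 1 to 3 (17, 15 and 5 counts), against 15.9, 16.6 and 12.2 CPM in controls 1 to 3 (106, 150 and 127 counts). The groups were far apart, with a log2 fold change of -3.53 ± 0.31 (adjusted p by edgeR = 0.000229), and the call held in all 13 alternative settings. FXR is known to raise Fgf21 in liver and Fgf15 in gut, and its part in the level of Fgf21 was not tested here. Ppara, which drives Fgf21 in fasted liver, averaged 3.27 ± 0.927 CPM in mutants and 5.10 ± 0.940 CPM in controls (SD, n = 3), with -0.63 ± 0.27 (adjusted p by edgeR = 0.358). Nr5a2, an acinar nuclear receptor that PROX1 is known to bind, had -0.09 ± 0.11 (adjusted p by edgeR = 0.810). Bhlha15, the acinar factor MIST1, had -0.24 ± 0.12 (adjusted p by edgeR = 0.466). The median of the 18 was -0.08.

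Of 17 fatty acid genes known as PPARalpha targets, 1 fell and 0 rose, with a median of -0.14. Acot1, a cytosolic acyl-CoA thioesterase, averaged 7.62 ± 1.31 CPM in mutants and 13.5 ± 1.79 CPM in controls (SD, n = 3), with a log2 fold change of -0.83 ± 0.17 (adjusted p by edgeR = 0.0359). Its call was lost in 6 of 13 alternative settings, with adjusted p up to 0.154: with library totals as the scaling, or when any 1 mutant, control 2 or control 3 was left out. In addition 19.2% of its 50-base stretches occur in other genes, chiefly other Acot genes.

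Readouts of FGF receptor signalling did not pass the test. Of 20 feedback targets of FGF and ERK, 0 passed in edgeR or DESeq2 and 3 had an unadjusted p under 0.05, with a median of -0.12. Those 3 were all lower in mutants: Dusp5 (log2 fold change -1.16), Ier2 (-0.51) and Spry4. Spry4, a feedback inhibitor of receptor kinases, averaged 3.08 ± 0.688 CPM in mutants and 5.08 ± 1.74 CPM in controls (SD, n = 3), with -0.75 ± 0.30 (adjusted p by edgeR = 0.321). Dusp6, a phosphatase that ERK induces, averaged 21.1 ± 1.93 CPM in mutants and 17.1 ± 4.02 CPM in controls, with 0.29 ± 0.17 (adjusted p by edgeR = 0.543). Of 18 cascade genes 0 passed in edgeR or DESeq2 and 1 had an unadjusted p under 0.05, with a median of 0.02. The adaptor genes Frs2 and Frs3 had log2 fold changes of -0.00024 ± 0.14 and 0.31 ± 0.37 (adjusted p by edgeR = 0.999 and 0.807).

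Of 21 other FGF ligands, 7 were at 0 in all 6 libraries, Fgf15 and Fgf23 (the other endocrine FGFs) among them, and 15 in all, with at most 9 counts in any library, were too low to test. None of the 6 tested passed in edgeR or DESeq2, and 0 had an unadjusted p under 0.05, with a median of 0.23. Fgf1, a ligand of all FGF receptors, averaged 26.1 ± 1.96 CPM in mutants and 23.2 ± 8.49 CPM in controls (SD, n = 3), and Fgf7, a mesenchymal ligand of epithelial FGFR2, averaged 2.97 ± 0.923 CPM in mutants and 1.88 ± 0.530 CPM in controls (adjusted p by edgeR = 0.842 and 0.450). Of 15 co-receptors and binding proteins 0 passed in edgeR or DESeq2 and 1 had an unadjusted p under 0.05, with a median of -0.04. Kl, alpha-klotho, averaged 1.06 ± 0.135 CPM in mutants and 0.839 ± 0.344 CPM in controls, and the decoy receptor gene Fgfrl1 averaged 19.4 ± 3.31 CPM in mutants and 23.2 ± 3.99 CPM in controls (adjusted p by edgeR = 0.848 and 0.572).

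Tested genes whose groups did not overlap were counted in each list, with no test, beside 9.13% of all genes with all mutants above and 9.86% with all mutants below. All mutants lay above all controls in 4 of 13 bZIP genes, 4 of 14 mitochondrial genes, 3 of 18 cascade genes, 2 of 13 transfer RNA genes, 2 of 14 other stress targets, 2 of 17 fatty acid genes and 2 of 16 autophagy genes. The same held for 1 gene each of the co-receptors, the eIF2 genes and the factors acting on Fgf21, and for 0 in the other 4 lists. All mutants lay below all controls in 8 of 20 amino acid genes, 5 of 18 factors acting on Fgf21, 5 of 29 IRE1 and ATF6 genes, 4 of 17 fatty acid genes and 2 of 20 feedback targets. That held for 1 gene each of the cascade, transfer RNA, other stress, mitochondrial and autophagy lists, and for 0 in the other 4.

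**Figure D3:**
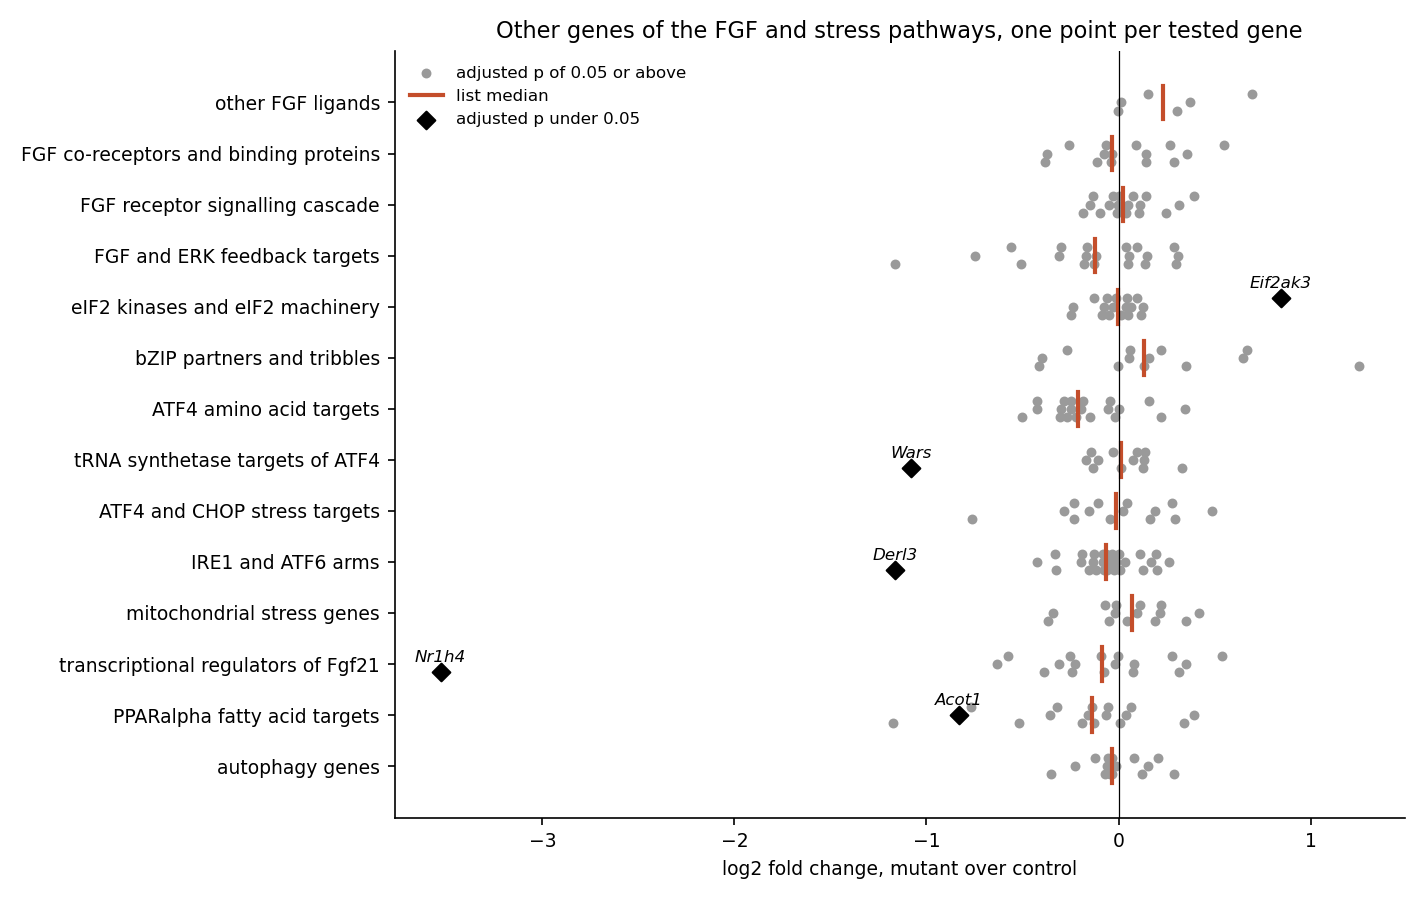
Log2 fold change of mutant over control for each tested gene of the 14 lists, with the list median as a red bar and diamonds for genes with an edgeR adjusted p under 0.05. Diamonds mark Eif2ak3 (0.84), Wars (-1.08), Derl3 (-1.16), Nr1h4 (-3.53) and Acot1 (-0.83), and the ATF4 amino acid targets have their median at -0.21.

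The genes whose pattern lay nearest to that of Fgf21 were sought by the root mean square difference between log2 CPM profiles over the 6 libraries, each centred on its own mean. Among 10026 genes with a mean of at least 5 CPM, the nearest 5 were Gm2663, Mat1a, Aldh1b1, Gc and Agt, at distances between 0.631 and 1.01. Mat1a, the methionine adenosyltransferase typical of liver, had 236, 134 and 186 CPM in mutants 1 to 3 and 26.6, 32.6 and 28.5 CPM in controls 1 to 3. Aldh1b1, a mitochondrial aldehyde dehydrogenase of pancreas progenitors, had 90.4, 66.8 and 75.4 CPM in mutants and 8.87, 12.6 and 15.6 CPM in controls. Agt, angiotensinogen, had 25.4, 9.51 and 28.1 CPM in mutants and 3.46, 3.09 and 4.32 CPM in controls. All 3 were higher in every mutant, and Agt was low in mutant 2, where Fgf21 was not. With a robust dispersion, or without control 2, Agt no longer passed the edgeR test (adjusted p up to 0.0676). Gc, the vitamin D-binding protein, differed 5.14-fold and Gm2663, a trypsin-family gene, 29.5-fold, although 83.5% of the 50-base stretches of Gm2663 also occur in 1810009J06Rik. Any gene with a large rise would lie near Fgf21 on this measure, so the choice gives no test.

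**Figure D4:**
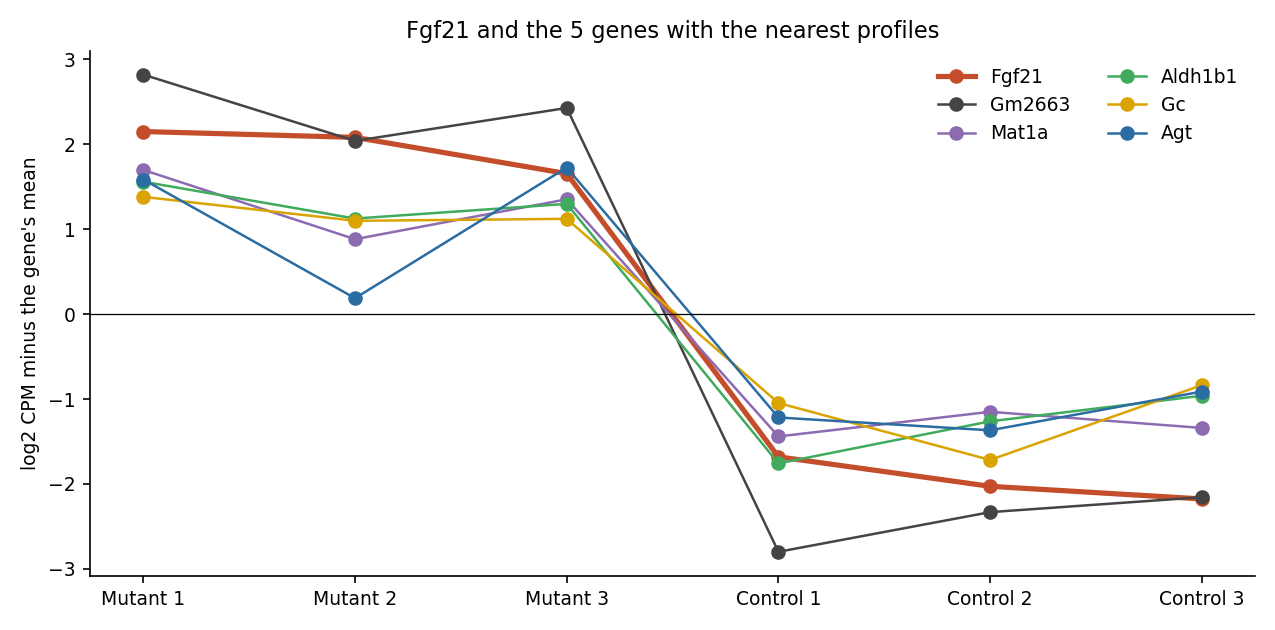
Log2 CPM of Fgf21 and of the 5 genes nearest to it, each minus its own mean over the 6 libraries; lines join the points of a gene and give the replicates no order. Fgf21 and Gm2663 span the widest range, and Agt falls nearly to its own mean in mutant 2.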

How the data were processed

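Whole pancreas RNA was sequenced from 3 mutant and 3 control samples with a TruSeq mRNA kit. The authors deposited 1 file per library with raw counts for each gene symbol, and groups and replicate numbers came from the sample titles. The submitters' processing notes name STAR, cutadapt 1.13, HTSeq 0.6.1p1, DESeq2 and mm10, with no role or order. Neither annotation nor strand setting is given in the sources used here.

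Counts were filtered with filterByExpr, scaled by TMM and tested with edgeR 4.0.16 (glmQLFit, glmQLFTest) in R 4.3.3 without covariates, with Benjamini-Hochberg adjustment over 13017 genes and a threshold of 0.05. An SE is the size of a log2 change over the root of its F. CPM used TMM-scaled library sizes, and log2 CPM a prior count of 2. The fit was tested on simulated data. Nothing states separate litters. The p-values set the difference between groups against the spread within groups of these 6 libraries, which may be partly technical. At this depth 1 CPM was 6.65 to 10.5 counts. Within groups a chi-square statistic per degree of freedom lay between 5.83 and 20.5, more than counting error alone would give. It cannot show that the libraries came from separate animals. The highest values, 20.5 and 18.9, were those of control 1 with controls 2 and 3.

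Gene places, exon lengths and shared 50-base stretches came from GENCODE M21 on GRCm38 (mm10), and promoters from RefSeq on GRCm38.p6.

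The 10 genes, the 14 lists and the tests were chosen with earlier results of these data known. Named were all 10 genes, up to 4 called genes of each list (or its first tested genes, up to 2 in all, where fewer than 2 were called), Ppara, Nr5a2, Bhlha15 and the 5 genes nearest to Fgf21. A gene that this rule names is not reported here. Other names were chosen after their values were seen. Alternatives were other scalings, filters, dispersions and tools (DESeq2 1.42.0), the replicate number as a block, and leaving out each library.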

Additional observations from a re-analysis of the deposited data

How the results depend on the processing

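The log2 fold changes of the 10 genes moved by less than the spread between replicates in 125 of 130 recomputations, over 13 alternative settings. Leaving out 1 of 3 replicates can seldom move a group mean beyond that spread, so the count does not measure stability. Ddit3 ran from 0.98 to 1.54 and was counted as unmoved. The 5 that moved further came with library totals alone as the scaling. This moved the median of all genes to 0.17 and gave 0.16 for Klb, 0.13 for Fgfr1, 0.42 for Fgfr3, 0.17 for Atf4 and 1.16 for Nupr1. Relative to that shift, Klb, Fgfr1 and Atf4 stayed within 0.05 of 0. Under that scaling 190 genes were higher and 130 lower (59.4% higher, against 26.5%). It called 1 co-receptor gene (Sdc1), 3 bZIP genes (Atf3, Atf5, Cebpg), 2 transfer RNA genes (Eprs higher, Wars lower) and 2 mitochondrial genes (Hspa9, Hspd1), and among fatty acid genes it called Plin2 in place of Acot1. The bZIP list had 2 calls without a filter, 2 with DESeq2 and 1 with a robust dispersion. DESeq2 called 2 genes of the IRE1 and ATF6 arms (Derl3, Xbp1) and 1 mitochondrial gene.

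When 1 library was left out, calls over all genes lay between 125 and 301 (139 without mutant 1, 178 without mutant 3, 125 without control 2, 140 without control 3), and the co-receptor, bZIP, eIF2 and fatty acid lists each had between 0 and 1 calls. The calls of Nr1h4, Wars and Derl3 were present in all 13 settings. With the replicate block 241 genes were called, 216 of them among the 268. Samples of the same number in the 2 groups deviated from their group means with correlations of 0.08, 0.03 and -0.07, and not every sample correlated best with its own number, so the numbers were not taken to pair samples. The cause of each shift was not tested. Depth limits Fgf21 in controls (6 counts per library) and genes near 1 CPM such as Kl, Gdf15 and Nr1h4 in mutants.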

Other observations

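Outside the 10 genes, the C/EBP-ATF response element TGATGNAA stood in the promoters of 258 tested genes, with a median log2 fold change of 0.0074. Of these 258, 4 rose and 2 fell in mutants by edgeR. Over all 13017 genes tested, 71 (0.545%) rose and 197 (1.51%) fell. The counts among the 258 are small, and nothing is read from them. The 4 with the element that rose were Gc, Rbp4, Myzap and 1810008I18Rik. Rbp4, the plasma carrier of retinol, had 47.2, 48.9 and 44.3 CPM in mutants 1 to 3 and 28.9, 21.0 and 20.8 CPM in controls 1 to 3, with a log2 fold change of 1.00 (adjusted p by edgeR = 0.00381). Myzap, a junction-associated protein, was at 10.9, 11.02 and 9.28 CPM in mutants and 5.71, 6.30 and 5.86 CPM in controls, with 0.80 (adjusted p by edgeR = 0.0264). All mutants lay above all controls in both genes. The 2 with the element that fell, Gm5771 and Prss1, are trypsin-family genes, whose near-identical copies could share reads. In both, control 1 (97.7 and 118 CPM) stood far below controls 2 and 3 (between 4187 and 4557 CPM).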
